A study of Mus musculus with 8 samples.

Results

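Structural events of mouse mtDNA with an end in the tRNA-Pro gene (TrnP, chrM:15356-15422 of GRCm38, minus strand) or in the adjoining non-coding control region (NCR, chrM:15423-16299) were collected from deep sequencing lists of 8 libraries. An entry was taken when its start, its end or both lay between positions 15356 and 16299, whatever its type and whether or not the segment ran past the end of the numbering. This gave 21 of 72 entries, or 18 of 56 distinct events. All 21 were listed as duplications and 0 as deletions, and in 17 of them both ends lay in the region, which spans 944 bp or 5.79% of the 16299 bp circle. Of all 72 entries 53 were duplications, and of the 51 with no end in the region 32 were. Not taken was 1 duplication of the female Mgme1-/- brain that runs across the whole region with no end in it, from 12871 to 4232 (7661 bp, 2 reads, 0.0220%).

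The study asked how RNase H1 takes part in mtDNA replication, and sequenced hearts of mice lacking it beside brains of mice lacking MGME1. Heart DNA came from 8-week-old Rnaseh1 loxP/loxP mice (L/L hearts), in which loxP sites flank exon II, and from Rnaseh1loxP/loxP,+/Ckmm-cre mice (L/L, cre hearts), in which the Ckmm promoter drives cre in skeletal muscle and heart. Brains were taken from Mgme1 +/+ and Mgme1 -/- mice between 23 and 25 weeks old, and all mice had the C57BL/6N background. Each of the 4 groups held 1 male and 1 female, each mouse giving 1 library. The male hearts were sequenced from mitochondrial DNA and the female hearts from total DNA, so sex and kind of DNA cannot be told apart there, whereas the 4 brains were sequenced from total DNA. Levels of the deleted genes were not analysed here.

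The control region is the main regulatory stretch of mtDNA and holds the promoters and the origin of heavy-strand replication, which lies beside conserved sequence block 1 (CSB1). Many new heavy strands stop at termination associated sequences close to tRNA-Pro and stay annealed as the third strand of the D-loop, while others continue around the circle. RNase H1 cleaves the RNA of RNA:DNA hybrids and shapes replication primers, and MGME1 is an exonuclease that trims the displaced flap of DNA when a round of replication is completed.

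The sequences below show where the segments begin and end on the mouse reference (GRCm38, plus strand). The tRNA-Pro gene and the stretch leading from 20 bp before CSB1 to the end of conserved sequence block 2 (CSB2) are shown first because most of the longer segments joined these places. Capitals mark the first base of a listed segment in TrnP, at 6 distinct positions, and the last base of a listed segment in the other stretch, also at 6.
TrnP, chrM:15356-15422: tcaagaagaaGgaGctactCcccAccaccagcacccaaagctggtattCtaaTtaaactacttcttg
CSB1 to CSB2, chrM:16015-16104: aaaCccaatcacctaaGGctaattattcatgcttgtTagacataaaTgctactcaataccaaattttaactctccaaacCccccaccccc
Listed starts occupied positions 15366 to 15408 of TrnP, and the marked ends ran from 16018 to 16094.

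A duplication joins the last base of its segment to the first base of the same segment. For the 3 duplications listed in both Mgme1-/- brains, the bases around the start, around the end and across the join are given, with the direct repeat shared by both ends in capitals.
15369 to 16061, start, chrM:15354-15390: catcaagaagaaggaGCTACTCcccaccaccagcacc
15369 to 16061, end, chrM:16047-16083: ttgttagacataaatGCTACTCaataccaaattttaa
15369 to 16061, join: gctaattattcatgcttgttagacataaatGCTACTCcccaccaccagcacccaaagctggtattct
15404 to 16032, start, chrM:15389-15425: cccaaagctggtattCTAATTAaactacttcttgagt
15404 to 16032, end, chrM:16018-16054: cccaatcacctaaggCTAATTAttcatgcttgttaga
15404 to 16032, join: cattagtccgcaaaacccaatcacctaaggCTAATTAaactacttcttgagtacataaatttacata
15468 to 15579, start, chrM:15453-15493: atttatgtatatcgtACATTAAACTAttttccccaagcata
15468 to 15579, end, chrM:15565-15605: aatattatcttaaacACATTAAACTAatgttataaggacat
15468 to 15579, join: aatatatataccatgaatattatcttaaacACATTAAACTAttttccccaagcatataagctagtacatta
The repeats measured 7, 7 and 11 bp, and each join retains 1 copy.

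The ends of the 3 entries outside the Mgme1-/- brains are given next, together with the CSB2-ending duplications of the Mgme1-/- brains, because each of these 5 events has an end in CSB2 (chrM:16089-16104), a run of mostly cytosines. Capitals again mark the repeat.
16100 to 15717, start, chrM:16085-16117: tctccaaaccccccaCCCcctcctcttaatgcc
16100 to 15717, end, chrM:15703-15735: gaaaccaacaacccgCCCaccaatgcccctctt
16101 to 15727, start, chrM:16086-16121: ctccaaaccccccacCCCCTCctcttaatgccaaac
16101 to 15727, end, chrM:15713-15748: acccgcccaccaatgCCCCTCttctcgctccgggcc
218 to 16094, start, chrM:203-234: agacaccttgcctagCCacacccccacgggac
218 to 16094, end, chrM:16080-16111: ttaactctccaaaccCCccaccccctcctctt
14935 to 16094, start, chrM:14920-14958: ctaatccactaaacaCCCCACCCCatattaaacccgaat
15375 to 16094, start, chrM:15360-15396: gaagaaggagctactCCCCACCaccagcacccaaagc
CSB2 was 75% C, against 25.0% C in the control region as a whole. The repeats of these events held 3, 5, 2, 8 and 6 cytosines out of 3, 6, 2, 9 and 7 bases, in the order given.

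Both Mgme1-/- brains listed 9 duplications with an end in the region. Of the Mgme1+/+ brains the male listed 0 and the female 1. The L/L hearts likewise had 0 in the male and 1 in the female, and the L/L, cre hearts 1 in the male and 0 in the female. The Mgme1-/- brains thus stood apart from the other 6 libraries, whose groups overlapped completely. Supporting reads summed to 24 for the male Mgme1-/- brain, to 39 for the female one and to 2 in each of the 3 other libraries that listed a duplication. Summed heteroplasmy, the supporting reads as a percentage of supporting and reference reads added over events, was 0.317% for the male Mgme1-/- brain and 0.347% for the female one. It was 0.0215% in the female Mgme1+/+ brain, 0.0203% in the female L/L heart and 0.0316% in the male L/L, cre heart. On each of these 3 scales the lower Mgme1-/- brain lay above every other library.

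**Figure D1:**
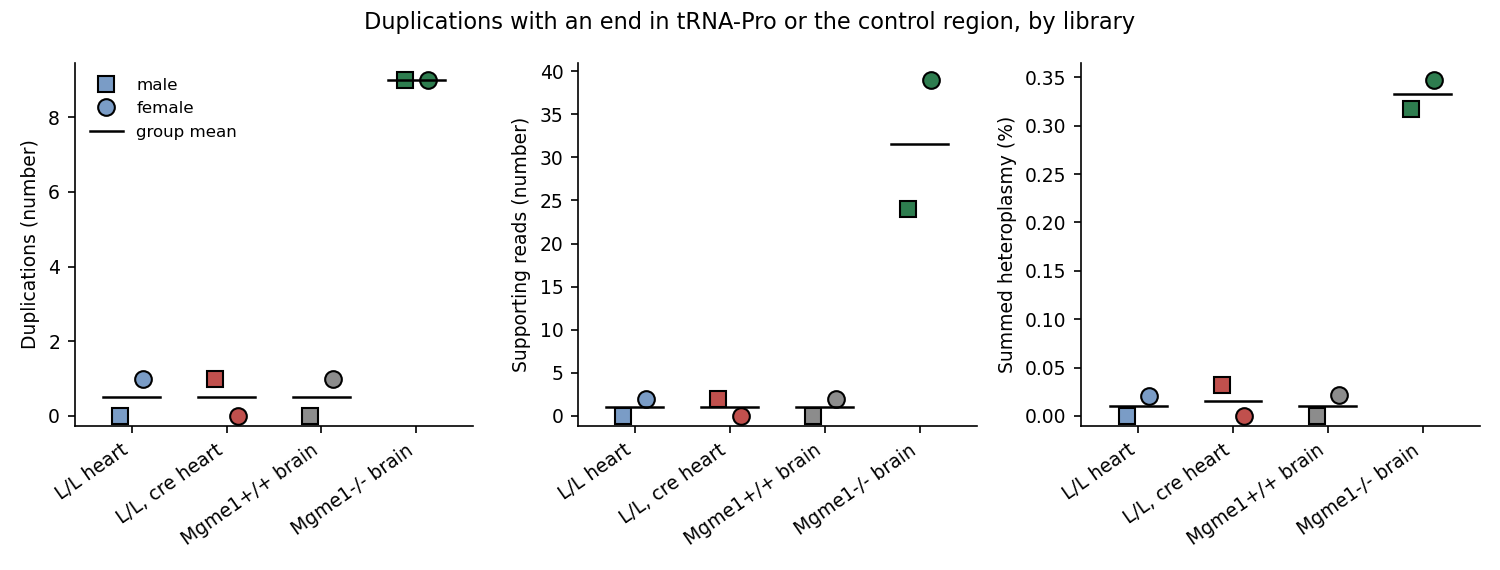
Duplications with an end in tRNA-Pro or the control region in each library, as a number, as supporting reads and as summed heteroplasmy in percent; squares are males, circles females and bars group means of 2 mice. Both Mgme1-/- brains sit at 9 duplications, and the other libraries at 0 or 1.

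The brains differed by 8.5 duplications per library, from 9 ± 0 (SD, n = 2 mice) in Mgme1-/- to 0.5 ± 0.707 (SD, n = 2) in Mgme1+/+ mice (exact 2-sided permutation test, p = 0.333). This p is the smallest that 2 mice against 2 allow, so no comparison of 2 groups here can pass 0.05. Supporting reads averaged 31.5 ± 10.6 (SD, n = 2) against 1 ± 1.41 (SD, n = 2), a difference of 30.5 that also exceeded both SDs (exact permutation test, p = 0.333). Summed heteroplasmy was 0.332% ± 0.0213 (SD, n = 2) against 0.0107% ± 0.0152 (SD, n = 2), a difference of 0.322 percentage points (exact permutation test, p = 0.333). The differences of number, reads and heteroplasmy had the same sign in both sexes, for instance 9 duplications between the males and 8 between the females. With at least 3 supporting reads per event the difference in number was 3, and with at least 10 it was 0.5, since a single duplication then remained.

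In the hearts the difference was 0 duplications, at 0.5 ± 0.707 (SD, n = 2) in both groups (exact permutation test, p = 1). The 1 duplication of each group lay in mice of different sex and kind of DNA, so the male difference was 1 and the female difference -1. Summed heteroplasmy averaged 0.0158% ± 0.0223 (SD, n = 2) in L/L, cre and 0.0101% ± 0.0144 (SD, n = 2) in L/L hearts, a difference of 0.00565 percentage points, less than the spread within either group (exact permutation test, p = 1). Leaving out a heart moved this difference between -0.0102 and 0.0215, and the differences in number and reads between -0.5 and 0.5 and between -1 and 1. A difference between the heart groups was thus not detectable in the region, where the hearts listed 2 events on 2 reads each.

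Across all 4 groups, the exact permutation test over the 105 partitions of 8 libraries into pairs gave p = 0.143 for the number of duplications and p = 0.143 for summed heteroplasmy (adjusted p = 0.143 for both by Benjamini-Hochberg over these 2 measures). The smallest p this design allows is 0.00952. With at least 10 supporting reads p was 1 for both measures. For each measure 15 partitions reached the observed between-group sum of squares, as many as keep a given pair of libraries together. The means of the 3 groups other than Mgme1-/- brains were 0.5 duplications each. Tissue, age and, in the male hearts, kind of DNA differ between hearts and brains and cannot be told apart in this test.

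The lists give depth at their own events and nowhere else, as supporting plus reference reads. Its median was 7035 reads in the male Mgme1-/- brain and 10442 in the female one, against 9210 in the male Mgme1+/+ brain and 8660 in the female one. The hearts ranged more widely, from 27178 reads (male, L/L) through 11729 (male, L/L, cre) and 9941.5 (female, L/L) to 1655.5 (female, L/L, cre). The male Mgme1-/- brain was therefore shallower than both Mgme1+/+ brains. At the duplications in the region, depth ran from 6826 to 8017 reads for the male Mgme1-/- brain and from 8708 to 12927 for the female one. The duplication of the male L/L, cre heart lay at a depth of 6332, below the median of its library. The part of depth in the counts was not tested.

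Single events were rare in every library, and most rested on few reads. Of the 18 entries in the Mgme1-/- brains, 12 had 2 supporting reads and 6 had 3 or more, and the median heteroplasmy was 0.0268% (0.0155 to 0.129). The duplications elsewhere in the mtDNA of the same brains had a median of 0.0269%, with 5 of 23 at 3 or more reads. By mouse, the medians inside and outside the region were 0.0269% and 0.0516% in the male and 0.0230% and 0.0208% in the female, so that they lay close in the female and further apart in the male. The median of supporting reads was 2 inside and outside in both mice, and the part of local depth in these medians was not tested. The floor, the share that 3 reads make of a library's median depth, was 0.0426% for the male Mgme1-/- brain and 0.0287% for the female one, and 1 entry of the male and 4 of the female lay at or above it. For the female L/L, cre heart the floor was 0.181%, above every heteroplasmy in the region, so that a count of 0 there does not show absence. The Mgme1+/+ brains had floors of 0.0326% in the male and 0.0346% in the female. At or above either floor lay 2 of 9 entries of the male Mgme1-/- brain and 4 of 9 of the female one.

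**Figure D2:**
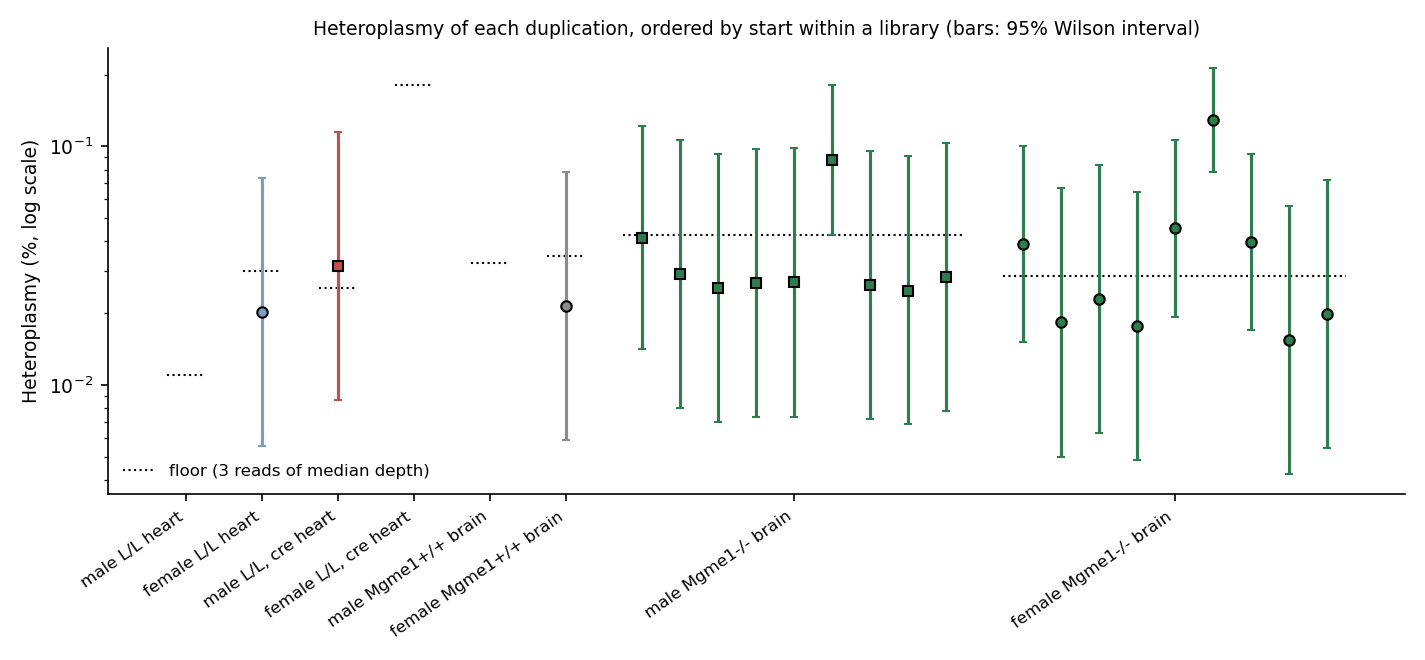
Heteroplasmy in percent on a log scale for each duplication with an end in the region, ordered by start within a library, with 95% Wilson intervals that cover counting error only; dotted lines are the floors, 3 reads of the median depth. The highest value, 0.129%, belongs to the female Mgme1-/- brain, and the floor of the L/L, cre heart of the female, 0.181%, lies above every point.

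The duplication of 629 bp from 15404 in TrnP to 16032, 3 bp before CSB1, had 15 of 11621 reads in the female (0.129%, 95% Wilson interval 0.0782 to 0.213) and 2 of 7495 in the male Mgme1-/- brain (0.0267%, 0.00732 to 0.0973). The value of the female was 4.84 times that of the male, and the intervals still overlapped. This event alone carried 38.5% of the female's supporting reads in the region and 8.33% of the male's. The segment holds 19 of the 67 bases of TrnP and both extended termination associated sequences, ETAS1 (chrM:15451-15509) and ETAS2 (chrM:15515-15558), and stops short of CSB1.

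The 112 bp duplication from 15468 in ETAS1 to 15579, 21 bp past ETAS2, had 7 of 7963 reads in the male (0.0879%, 0.0426 to 0.181) and 5 of 12605 in the female Mgme1-/- brain (0.0397%, 0.0169 to 0.0928). Here the male was higher, by 2.21 times, again with overlapping intervals. It made up 29.2% of the male's supporting reads in the region and 12.8% of the female's. ETAS2 lies wholly inside this segment, which contains neither TrnP nor a conserved sequence block.

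The 693 bp duplication from 15369 in TrnP to 16061, 3 bp past CSB1 (chrM:16035-16058), had 3 of 7238 reads in the male (0.0414%, 0.0141 to 0.122) and 5 of 11044 in the female Mgme1-/- brain (0.0453%, 0.0193 to 0.106). The mice differed least in this event, which repeats 54 bases of TrnP, both termination associated sequences and the whole of CSB1. Its end lies 29 bp from that of the 629 bp segment. Together the 3 shared duplications held 12 of 24 reads in the male and 25 of 39 in the female, or 49.1% and 61.6% of summed heteroplasmy. The number shared was 3 with ends allowed to differ by 5 bp or by 20 bp, and 2 when 3 reads were asked for in each mouse. Sharing was not confined to the region. The 18 entries of these brains in the region were 15 distinct duplications, and the 23 duplication entries elsewhere were 21 distinct ones.

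TrnP, which makes up 0.411% of the circle, held the start of 5 of all 16 duplications of the male Mgme1-/- brain. It held that of 3 of all 25 of the female one and of 0 in the other libraries. The gene belongs to the region by which entries were taken, and its share of starts was not tested. Besides the shared pair, the male listed segments from 15375 to 16094 (720 bp, 0.0293%), from 15379 to 15528 (150 bp, 0.0255%) and from 15408 to 15667 (260 bp, 0.0269%), with 2 reads each. The female listed a segment from 15366 to 16031 (666 bp, 2 reads, 0.0177%), whose end lies 1 bp from the shared end at 16032. The 8 starts fell into 2 clusters, at 15366 to 15379 and at 15404 to 15408. The segments starting in TrnP repeat 15 to 57 of its 67 bases. Among the segments with an end in the region, the gene was repeated whole in 3 of the female and 0 of the male, those starting upstream in CYTB or tRNA-Thr.

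Those 3 segments ran from 14935 in CYTB to 16094 in CSB2 (1160 bp, 4 of 10268 reads, 0.0390%, 0.0152 to 0.100), from 15012 in CYTB to 15761 (750 bp, 2 reads, 0.0183%) and from 15317 in tRNA-Thr to 16222 (906 bp, 2 reads, 0.0230%). The last is the segment with the end nearest to the end of the control region, 77 bp before it, and the one of these that also repeats CSB2 and CSB3. The male listed 0 segments reaching in from upstream genes. Its nearest duplication left out by position, from 15218 to 15343 (2 reads, 0.0284%), ended 13 bp before TrnP, while its nearest start inside, at 15369, lay 13 bp into the gene.

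**Figure D3:**
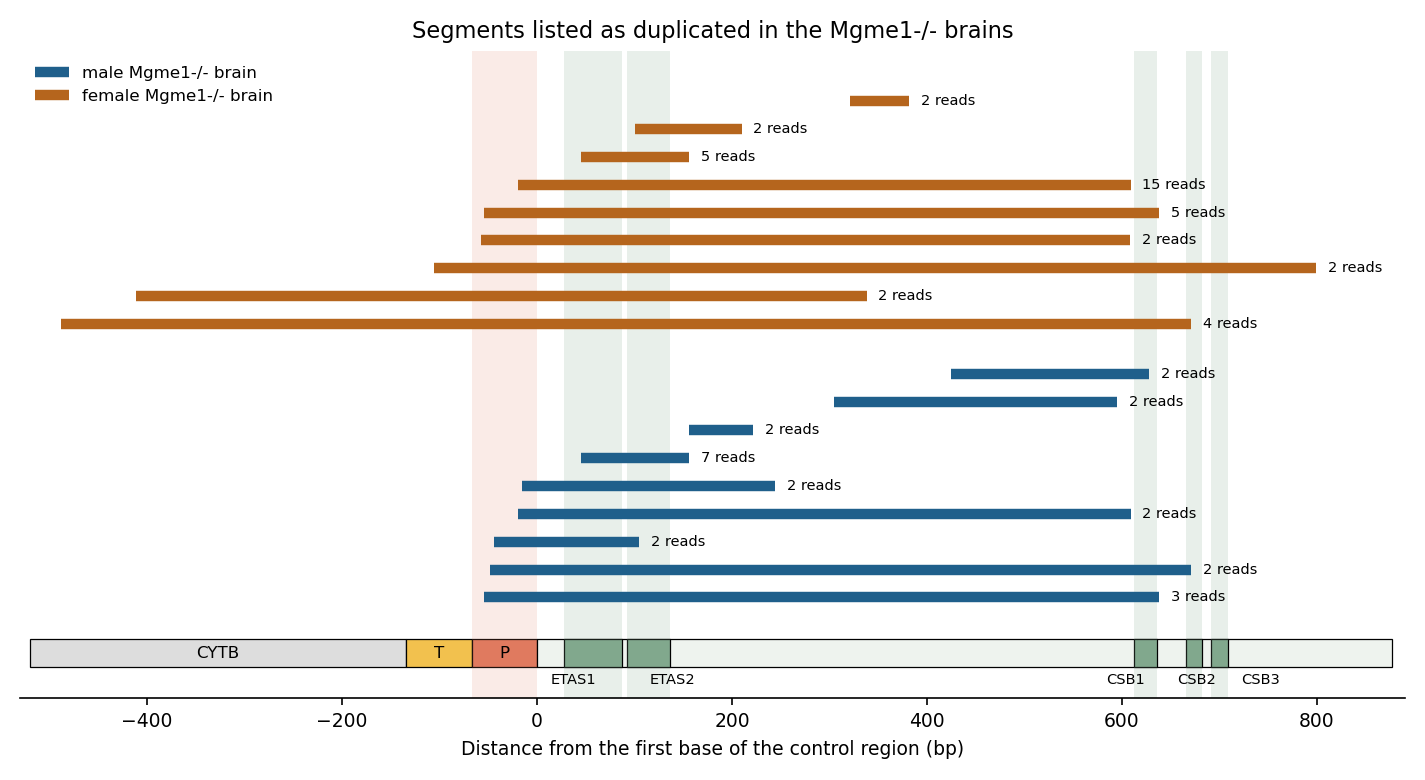
Duplicated segments with an end in the region in the male and female Mgme1-/- brains, drawn to scale against distance in bp from the first base of the control region, with CYTB, tRNA-Thr (T), tRNA-Pro (P), ETAS1, ETAS2 and CSB1 to CSB3; numbers are supporting reads. Starts gather in tRNA-Pro in 8 of 18 entries, and ends around CSB1 and CSB2 in 9 of 18.

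At the other side of the control region, 5 ends of the male and 4 of the female lay between 20 bp before CSB1 and 20 bp after CSB2, a window chosen after the positions were seen. Among them, CSB1 held the end of 1 segment, from 15848 to 16051 in the male (204 bp, 2 reads, 0.0285%), and CSB2 the end of 1 in each mouse, both at 16094. Position 16094 was the end used with most partners, 3 in 3 libraries, as the female Mgme1+/+ brain listed it too. Segments from before ETAS1 to this window or beyond were 3 in the male, of 629 to 720 bp, and 5 in the female, of 629 to 1160 bp. They held 7 of 24 reads in the male and 28 of 39 in the female, and 4 and 13 without the best supported of them in each mouse. The shorter or displaced segments, 6 in the male and 4 in the female, held the other 17 and 11 reads. This difference between 2 mice of unlike sex was not tested.

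Shorter segments within the control region completed the lists. ETAS2 held the start of a segment from 15523 to 15633 in the female (111 bp, 2 reads, 0.0155%) beside the end of the male's segment from 15379. The remaining 3 entries, 2 in the male and 1 in the female, measured 62 to 291 bp, had 2 reads each and lay between 0.0199% and 0.0263%. Position 15579, the end of the shared 112 bp segment, was also the start of one of them, a 67 bp segment in the male.

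The heteroplasmy of the segments with an end in the region was summed over each base. The 7661 bp duplication of the female, which would add 0.0220% at every base, is left out of this profile. The highest value of the female Mgme1-/- brain was 0.328%, over 57 bp from 15523 to 15579, where 8 of 9 segments overlapped, and that of the male was 0.239%, at position 15579, a single base where 2 segments meet. Away from that base the male reached 0.238%, from 15468 in ETAS1 into the first part of ETAS2, so both profiles were highest at the termination associated sequences. In the male this maximum rests on the 112 bp duplication from 15468 (7 reads, 0.0879%). The male's profile stood at 0.150% just before that start, and at 0.151% from 15848 to 16018, closer to CSB1. Over ETAS1 the profile ran from 0.150% to 0.238% in the male and from 0.272% to 0.312% in the female. It fell to between 0.0707% and 0.0992% over CSB1 in the male and to 0.107% in the female, and over CSB3 to 0% and 0.0230%. The last 205 bp of the control region in the male and the last 77 bp in the female were in no segment with an end in the region. Between ETAS2 and 20 bp before CSB1 the female stayed between 0.254% and 0.328%, whereas the male fell to 0.0974%.

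**Figure D4:**
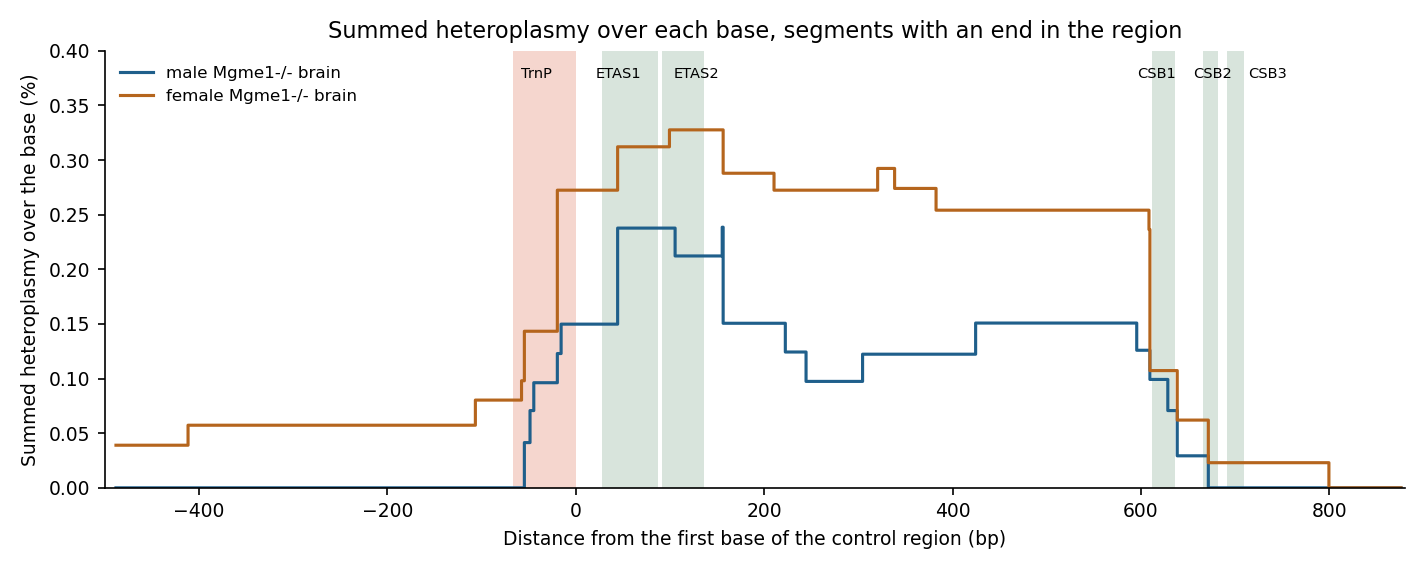
Summed heteroplasmy in percent of the segments with an end in the region that cover each base, against distance in bp from the first base of the control region, for the male and female Mgme1-/- brains; shading marks tRNA-Pro (TrnP), ETAS1, ETAS2 and CSB1 to CSB3. Both profiles are highest around ETAS1 and ETAS2, at 0.239% and 0.328%, and drop at CSB1. The male's maximum rests on the 112 bp duplication.

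The 3 entries outside the Mgme1-/- brains were of another shape. They were listed as duplications of 15877 to 15926 bp, nearly the whole circle, whereas the Mgme1-/- segments measured 62 to 1160 bp. A gapped read fits a repeat of one arc or a loss of the other, and read as losses these entries lack 382 bp (chrM:15718-16099) in the male L/L, cre heart and 373 bp (chrM:15728-16100) in the female L/L heart. In the female Mgme1+/+ brain the other arc measured 422 bp, from 16095 across the end of the numbering to 217 in the 12S rRNA gene. The heart events came from groups of both genotypes, and their ends lay 1 bp apart in CSB2 and 10 bp apart at the other side. Heteroplasmy was 0.0316% (0.00866 to 0.115; 2 of 6332 reads), 0.0203% (0.00557 to 0.0740; 2 of 9848 reads) and 0.0215% (0.00588 to 0.0782; 2 of 9324 reads), in that order. Of these 3 entries 3 had an end in CSB2, as did 2 of the 18 entries of the Mgme1-/- brains, a contrast noticed after the data were seen and not tested. With the event type taken from the shorter arc, the 3 became deletions, and duplications in the region were then listed in the Mgme1-/- brains and in no other library.

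Outside the region, the Mgme1-/- brains also listed more duplications than the Mgme1+/+ brains, 7 in the male and 16 in the female against 2 each. The region held 56.3% of the male's duplications and 36% of the female's, and 46.4% and 42.7% of their summed heteroplasmy. Counted by ends, 18 of 32 in the male and 15 of 50 in the female lay in the region. By ends the shares were 56.3% and 30%, and the region makes up 5.79% of the circle. Shares of duplications have no such reference, since 1 end in the region suffices. The ends of a segment are not independent, as both lay in the region for 9 of 9 entries of the male and 6 of 9 of the female. An excess of ends in the region was not tested. In the other libraries the share of duplications was 33.3% in the female Mgme1+/+ brain and 25% in the male L/L, cre heart. It was 100% in the female L/L heart, and each of these 3 rests on 1 event. The male Mgme1+/+ brain and the female L/L, cre heart had 0%, with 2 duplications each. A single event sets such shares, so nothing was concluded from them. Duplications inside minus duplications outside averaged -2.5 ± 6.36 (SD, n = 2) in Mgme1-/- and -1.5 ± 0.707 (SD, n = 2) in Mgme1+/+ brains, a difference of -1 (exact permutation test, p = 1). In number of duplications, the difference between the brain genotypes was thus not shown to be larger inside the region than outside. These counts are not scaled for length, and the region makes up 5.79% of the circle. The test therefore cannot decide whether duplications per base differed more inside the region. The difference of inside minus outside was -5.5 without the male and 3.5 without the female Mgme1-/- brain. With at least 3 supporting reads it was 0.5, so its sign rests on single mice and on events with 2 reads. Among the hearts, the L/L, cre male listed 3 duplications outside the region, the L/L, cre female 2 and both L/L mice 0 (exact permutation test, p = 0.333), with summed heteroplasmies of 0.0964% and 0.305% against 0%. These sums rest on 8 supporting reads in the L/L, cre male and 5 in the L/L, cre female, at median depths of 11729 and 1655.5 reads. Inside minus outside, the L/L, cre hearts averaged -2 ± 0 (SD, n = 2) and the L/L hearts 0.5 ± 0.707 (SD, n = 2), a difference of -2.5 (exact permutation test, p = 0.333). Both p-values are the smallest possible here.

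The exact direct repeat aligned with the ends of the 18 distinct duplications had a median length of 5.5 bp (0 to 11), and 10 of 18 had 5 bp or more. The other 38 distinct events of the mtDNA had a median of 5.5 bp as well, with 22 of 38 at 5 bp or more, and the other 27 distinct duplications a median of 4 bp. As a whole the region's duplications were thus not set apart by their repeats. The 4 distinct duplications with 3 or more reads in a library had repeats of 7 to 11 bp, with a median of 8 bp, while the 14 with 2 reads had a median of 3 bp and 6 of 14 reached 5 bp. Elsewhere in the mtDNA, the 7 distinct duplications with 3 or more reads had a median of 6 bp (4 to 15). The 20 with 2 reads there had a median of 3 bp, and 7 of 20 reached 5 bp. Among the 18 in the region the longest repeat belonged to the 112 bp duplication shared by both mice, and held 9 A or T among 11 bases.

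**Figure D5:**
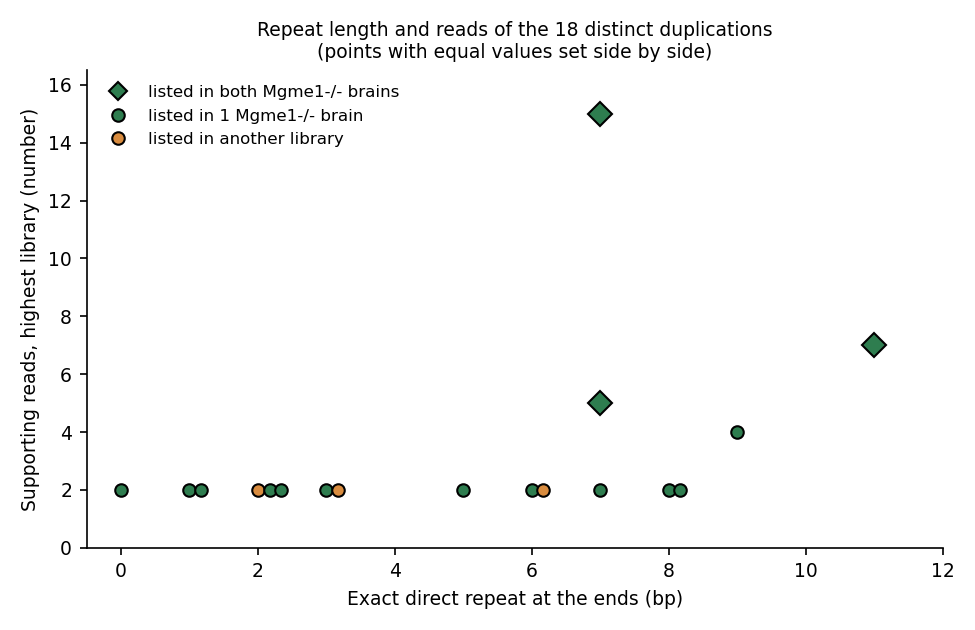
Length in bp of the exact direct repeat at the ends of each of the 18 distinct duplications, against the supporting reads in the library with most; diamonds are listed in both Mgme1-/- brains, green circles in 1 of them and orange circles in another library. The 4 events with 3 or more reads have repeats of 7 to 11 bp, and those with 2 reads range from 0 to 8 bp.

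Reads had been aligned to the mtDNA alone, so nuclear copies of it could contribute gapped reads. The intact sequence around both ends was found in the nuclear chromosomes for 18 of 18 distinct duplications, and for 33 of 38 distinct events elsewhere in the mtDNA. The joined sequence was found for 1, the 15404 to 16032 duplication, on chr12:97061726-97061810 with 92.0% identity over 87 aligned positions. Up to the end of the repeat the copy was identical at 67 of 67 bases, which intact control region sequence has too. Beyond the repeat 13 of 20 bases were identical, with 2 gapped positions. When the match had to reach 25 bp beyond the repeat, a criterion chosen after the data were seen, 0 of 18 joined sequences were found, against 1 of 38 for events elsewhere in the mtDNA. As the only match among the 18 reached 20 bases beyond its repeat, this 0 was fixed by the criterion and decides nothing about nuclear copies. The part of nuclear copies that differ from the reference in these mice was not tested.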

How the data were processed

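The authors sequenced total or mitochondrial DNA, aligned the reads directly to the mouse mtDNA (GRCm38 in the submitters' processing notes) and clustered gapped alignments with MitoSAlt, whose version and cut-offs are not given in the sources used here. They deposited, per event, unnormalized counts of reads supporting the event and of reference reads, and heteroplasmy as a percent after removal of PCR duplicates. Recomputed heteroplasmy equalled the deposited value to its decimals for 72 of 72 entries, and the bases around both ends matched the GRCm38 mtDNA for 72. No entry had fewer than 2 supporting reads.

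Entries were chosen by position as described. The members and lists were chosen with earlier results of these data known. Group means were compared by exact 2-sided permutation over libraries, tested on simulated data. Duplications were named when listed outside the Mgme1-/- brains, in 2 or more libraries, or with 3 or more reads. Of the rest, those with an end in TrnP, a termination associated sequence or a conserved sequence block were named. Segments that repeat the whole of TrnP were named too. Repeats were exact matches aligned with the ends and equalled the deposited repeat in 17 of 21 entries. Joined sequences, 60 bp from each side, were searched in the nuclear chromosomes by blastn (BLAST+ 2.17.0) with a word size of 11, a largest e-value of 0.001 and at least 25 bp matched on each side. Wilson intervals (95%) and floors (3 reads) cover counting error only. Python 3.11.15, NumPy 2.4.6, SciPy 1.17.1, pandas 2.3.3 and matplotlib 3.10.9 were used.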

Additional observations from a re-analysis of the deposited data

How the results depend on the processing

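The brain differences in number, supporting reads and summed heteroplasmy stayed above 0 under 37 of 37 alternatives, but their size followed the minimum of reads. With at least 3 supporting reads they were 3 duplications, 19.5 reads and 0.191 percentage points, with at least 10 they were 0.5, 7.5 and 0.0645, and with heteroplasmy at or above the highest floor of the brains 1.5, 13.5 and 0.131. Leaving out each mouse gave 8 to 9 duplications, 23 to 38 reads and 0.307 to 0.337 percentage points.

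In the hearts, leaving out each mouse gave -0.5 to 0.5 duplications, -1 to 1 reads and -0.0102 to 0.0215 percentage points. The heart difference in summed heteroplasmy was 0 with at least 3 or at least 10 supporting reads, at or above the highest heart floor, and with the event type by the shorter arc, and -0.00153 with reads taken as a percentage of median depth.

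The brain difference in duplications inside minus outside the region was 0.5 with at least 3 and with at least 10 supporting reads, -3 with both ends in the region, -0.5 by the shorter arc, -0.5 with events within 10 bp merged, and -5.5 to 3.5 when each mouse was left out. The cause was not tested. The four-group p was between 0.0857 and 0.143 without each mouse, and 1 for both measures with at least 10 supporting reads.

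With a match at least 25 bp beyond the repeat, added after the data were seen, 0 joined sequences were found in the nuclear chromosomes in place of 1. The match removed was known to reach 20 bases beyond its repeat, so this outcome was fixed by the criterion and shows nothing about robustness. Differences averaged within pairs of the same sex, which in the hearts also share the kind of DNA, equalled the unpaired differences. With 2 mice per group no alternative that keeps all mice could bring the exact permutation p of 2 groups below 0.333. Events of 2 reads, which make up 15 of the 21 entries, limit every count.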
